A study of Mus musculus with 12 samples.

Results

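The proteasome genes of the mouse heart were examined as a family of 50 genes among the 53700 genes counted. Members were all rows whose identifier belongs to a protein-coding gene with a symbol that begins with Psma, Psmb, Psmc, Psmd, Psme, Psmf or Psmg. Of these, 48 encode subunits, activators, an inhibitor or assembly chaperones of the proteasome, and 2 carry the name only (Psmc3ip and Psme3ip1, whose products bind a protein named for a subunit). Psmb9, the third inducible catalytic subunit, was not analysed here. RNA came from whole hearts of 6 ac-WT mice (CYB5R3wt/wt, Myh6-CreERT2) and 6 ac-CYB5R3-KO mice (CYB5R3fl/fl, Myh6-CreERT2). All mice of both groups were male, received tamoxifen at an age of 10 to 13 weeks and carried the Cre recombinase, which is driven by a cardiomyocyte promoter, so only cardiomyocytes lose Cyb5r3 while the libraries hold RNA of all cells of the heart. The comparison asked whether core, regulatory cap and inducible subunits differed with the loss of Cyb5r3.

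The proteasome degrades proteins that are marked with ubiquitin. Its core particle is a barrel of α and β subunits, of which Psmb5, Psmb6 and Psmb7 carry the proteolytic sites, and its regulatory cap of Psmc ATPases and Psmd subunits binds, unfolds and feeds in the substrates. Interferon signalling exchanges the catalytic subunits for the inducible Psmb8, Psmb9 and Psmb10 and induces the activators Psme1 and Psme2, and the resulting immunoproteasome is known for making peptides for antigen presentation. In many cells the factor Nfe2l1 raises the constitutive subunits together when proteasome activity is low, through antioxidant response elements in their promoters.

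The promoters of 42 members could be read from RefSeq (GRCm38.p6), each from 250 bases before to 50 bases after the start of the gene. They are shown for the inducible subunit Psmb8 (chr17:34197945-34198244, plus strand) and the activator Psme1 (chr14:55578244-55578543, plus strand). The constitutive catalytic subunits Psmb5 (chr14:54617946-54618245, minus strand) and Psmb6 (chr11:70525107-70525406, plus strand) are shown as well. Each promoter shown holds the letters of a motif. Psmb7, Psmb10 and Psme2 are not among the members listed below for any motif. Capitals mark the letters of a gamma-activated site (TTCNNNGAA) in Psmb8, of an interferon-stimulated response element (GAAANNGAA, here on the other strand) in Psme1, and of an antioxidant response element (TGACNNNGC) in Psmb5 and Psmb6.
Psmb8: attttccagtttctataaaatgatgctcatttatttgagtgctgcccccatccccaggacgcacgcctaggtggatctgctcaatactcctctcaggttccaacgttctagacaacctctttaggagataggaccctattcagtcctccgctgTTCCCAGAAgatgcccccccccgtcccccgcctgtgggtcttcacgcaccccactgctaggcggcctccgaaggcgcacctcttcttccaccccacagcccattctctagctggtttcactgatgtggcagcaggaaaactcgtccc
Psme1: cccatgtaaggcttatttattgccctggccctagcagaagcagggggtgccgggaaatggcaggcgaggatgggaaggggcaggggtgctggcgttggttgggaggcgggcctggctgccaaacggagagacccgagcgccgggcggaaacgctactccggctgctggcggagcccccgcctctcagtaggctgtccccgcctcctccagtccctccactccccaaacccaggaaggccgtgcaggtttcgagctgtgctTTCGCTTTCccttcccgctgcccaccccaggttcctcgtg
Psmb5: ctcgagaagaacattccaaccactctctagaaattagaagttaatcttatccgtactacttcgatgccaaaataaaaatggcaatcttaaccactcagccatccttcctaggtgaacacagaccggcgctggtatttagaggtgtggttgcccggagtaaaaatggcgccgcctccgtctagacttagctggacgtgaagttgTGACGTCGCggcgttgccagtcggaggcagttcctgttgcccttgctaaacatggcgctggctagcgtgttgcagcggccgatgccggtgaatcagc
Psmb6: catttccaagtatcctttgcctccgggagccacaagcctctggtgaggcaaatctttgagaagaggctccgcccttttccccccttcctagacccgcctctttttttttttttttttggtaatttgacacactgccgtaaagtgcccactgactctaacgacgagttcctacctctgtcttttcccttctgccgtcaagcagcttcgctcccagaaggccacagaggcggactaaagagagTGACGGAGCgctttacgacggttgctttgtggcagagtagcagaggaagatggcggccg
On both strands, the letters of the gamma-activated site were found in 3 members (Psmb8, Psmd2 and Psmg1) and in 8.30% of all 32851 promoters of this length. Those of the interferon-stimulated response element were found in 7 members (Psmb3, Psmb4, Psmc2, Psmd4, Psmd9, Psme1 and Psmg4) and in 8.56% of all promoters. Those of the antioxidant response element were found in 6 members (Psmb5, Psmb6, Psmc6, Psmd12, Psmd9 and Psme4) and in 12.4% of all promoters. A match of letters describes the sequence and was not tested as a binding site.

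Total counts ran from 43393183 to 53754284 per library, and values are given below as CPM (counts relative to the normalized library size) after the trimmed mean of M-values (TMM) normalization of edgeR, which scales libraries so that most genes agree. Cyb5r3 itself, the deleted gene, spanned 81.9 to 185 CPM among ac-WT hearts (median 121) and 42.0 to 67.4 CPM among ac-CYB5R3-KO hearts (median 52.7), with no overlap between the groups (log2 fold change -1.22, edgeR adjusted p = 0.045). The cardiomyocyte gene Myh6 was at 2400 CPM or more in every heart, as the label of the tissue says. TMM factors lay between 0.988 and 1.22 in 10 hearts, and were 0.570 in ac-WT heart 2 and 0.723 in ac-WT heart 3, the hearts with the largest shares of mitochondrial counts (35.3% and 34.8%, against 24.0% to 30.1% in the others). Results that rest on these 2 hearts are therefore also given without them. In whole tissue, fewer cells of a type and less RNA per cell cannot be told apart.

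No proteasome gene passed the test of a difference between the groups after adjustment, and the log2 fold changes farthest from 0 were -0.61 for Psma8, -0.39 for Psme2b and Psmg4, and 0.39 for Psme4. All members but Psmb11, a subunit of the thymus proteasome, passed the filter on low counts. Psmb11 had 3 counts over all hearts. Of the 49 members tested, 27 had a negative and 22 a positive log2 fold change (ac-CYB5R3-KO minus ac-WT), with a median log2 fold change of -0.02 (quartiles -0.15 and 0.13), beside a median of -0.01 over all 17847 genes tested (quartiles -0.21 and 0.16). By the quasi-likelihood test of edgeR, 0 of 49 members had an adjusted p under 0.05, beside 0.101% of all genes (18 genes), and the lowest adjusted p of a member was 0.249. DESeq2 called 0 members by adjusted p, beside 2.45% of all genes (437 genes). Unadjusted p was under 0.01 for 0 members, beside 4.59% of all genes. Unadjusted p was under 0.05 for 4 lower members (8.16%), beside 9.73% of all genes, and for 4 higher members (8.16%), beside 4.91% of all genes. In DESeq2, 9 members had an unadjusted p under 0.05 in either direction, beside 16.3% of all genes. Without ac-WT heart 2 the edgeR counts were 0 lower and 3 higher, without ac-WT heart 1 they were 9 and 3, and without ac-CYB5R3-KO heart 4 they were 0 and 2. The shares of all genes given above belong to the fits of all hearts and cannot be set beside these counts. There were 0 members whose groups did not overlap, beside 1.55% of all genes. The 95% interval of the log2 fold change lay between -0.5 and 0.5 for 35 of the 49 members, beside 39.0% of all genes, and between -1 and 1 for 48 members, all tested members but Psma8. Around each log2 fold change the interval reached a median of 0.24 to either side, so a difference smaller than its interval was not detectable with 6 hearts per group.

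**Figure D1:**
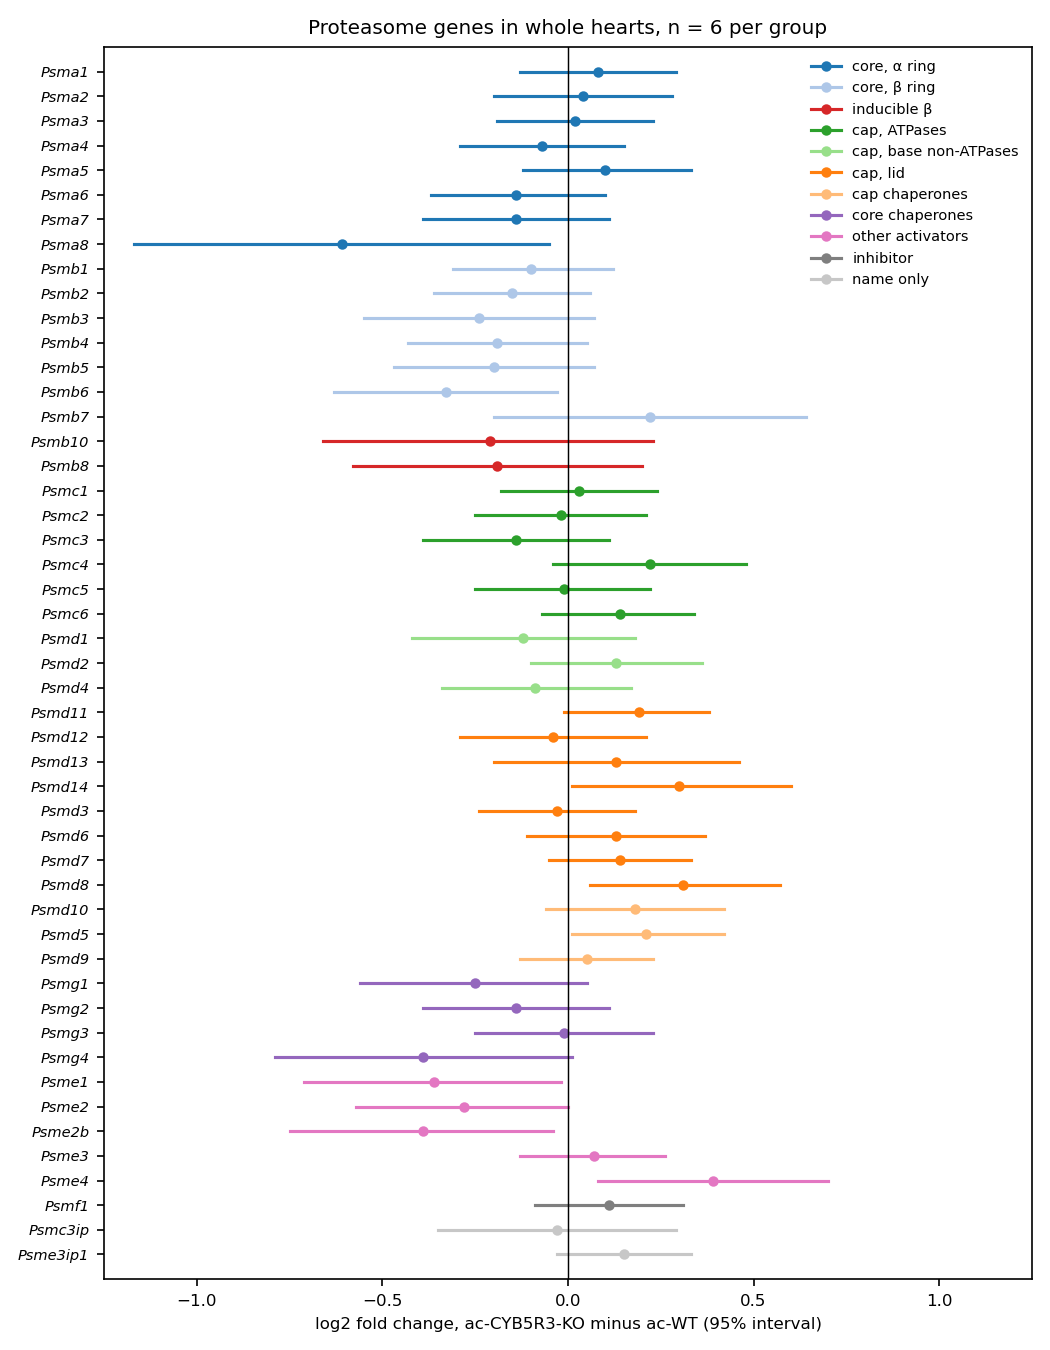
Log2 fold change (ac-CYB5R3-KO minus ac-WT, n = 6 hearts per group) of the 49 proteasome genes tested, with the 95% interval as a line and colour for the class. Points lie between -0.61 (Psma8) and 0.39 (Psme4), and the intervals of most members include 0.

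The median of the core particle genes lay below 0 and that of the cap genes above 0, with members of both on either side. These medians describe the sets and were not tested. The 15 core genes tested had a median log2 fold change of -0.14 (10 lower, 5 higher), and the 17 genes of the cap had a median of 0.13 (7 lower, 10 higher). The cap set holds only genes named by the rule. The lid protein Sem1 (log2 fold change -0.38) and the cap-bound Adrm1 (-0.02) have other names and are not in it. Within the core, the 7 constitutive β subunits had a median of -0.19, with Psmb7 the one member on the higher side, and the 8 α subunits had a median of -0.03. Within the cap, the 8 lid subunits had a median of 0.14, the 6 ATPases a median of 0.01 and the 3 other base subunits a median of -0.09. These 3, Psmd1, Psmd2 and Psmd4, were at 0.04, 0.13 and 0.07 without ac-WT hearts 2 and 3. The constitutive β subunits then lay between -0.16 (Psmb6) and 0.05 (Psmb7). For each heart, the median deviation of the core genes from their means was set against that of the cap genes. This difference, core minus cap, spanned 0.00 to 0.17 on the log2 scale among ac-WT hearts (median 0.10) and -0.16 to 0.01 among ac-CYB5R3-KO hearts (median -0.08). The groups overlapped near 0, where ac-WT hearts 1 and 6 (both 0.00) met ac-CYB5R3-KO hearts 1 and 5 (both 0.01). Without ac-WT hearts 2 and 3, the medians were -0.05 for the core and 0.08 for the cap, and at total counts they were 0.15 and 0.35, on a scale on which the median of all genes rose to 0.26.

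**Figure D2:**
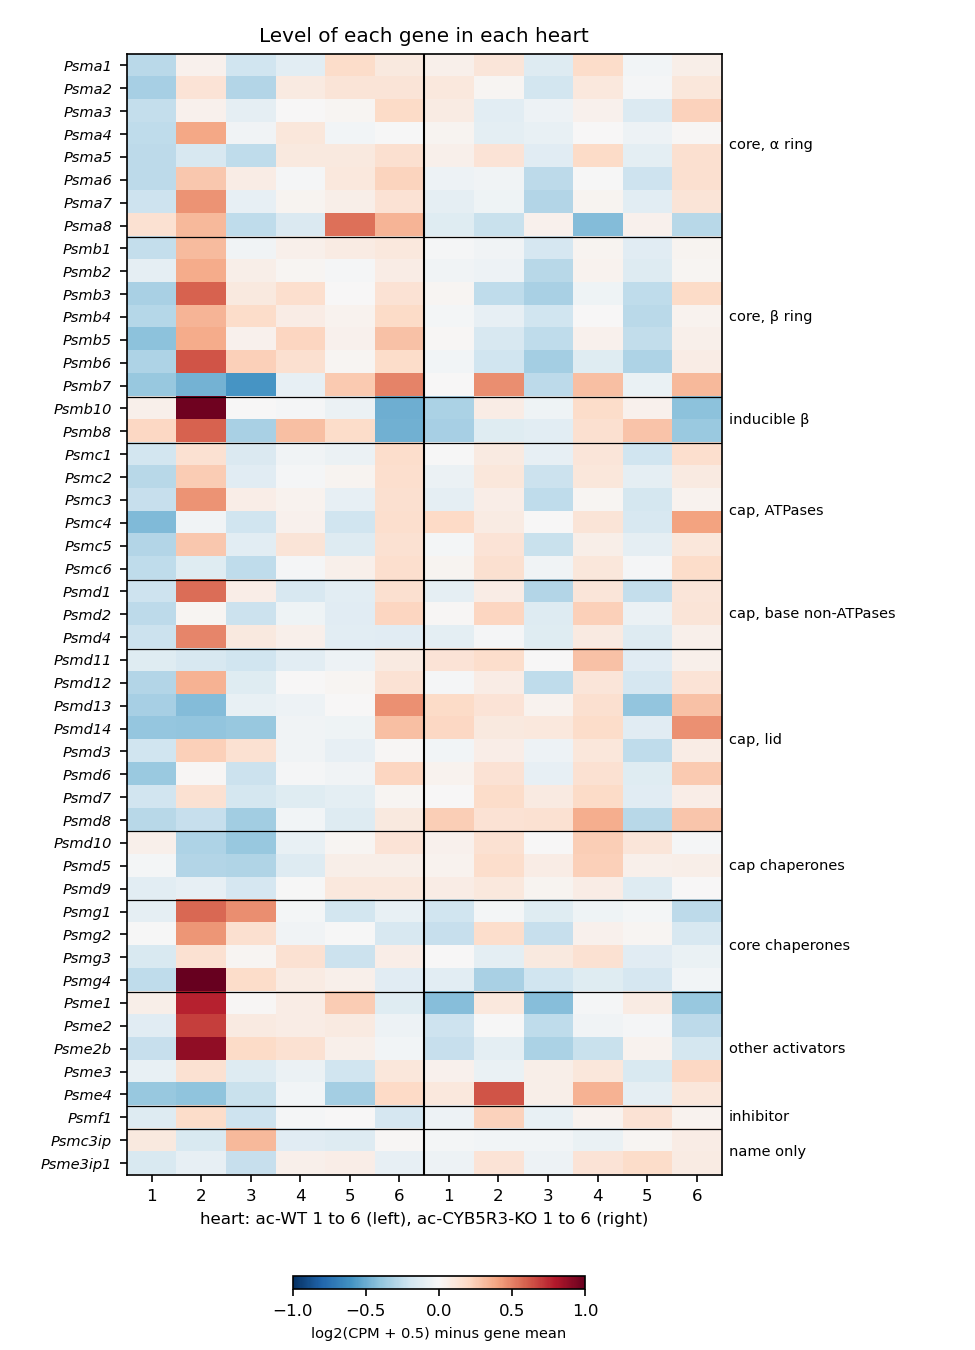
Level of 49 proteasome genes in each of 12 hearts, as log2(CPM + 0.5) minus the mean of the gene over the hearts, with classes divided by lines. The column of ac-WT heart 2 is high for most β subunits, Psmb10, Psmg4, Psme1 and Psme2, and low for Psmb7, Psmd13 and Psme4.

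Among the α subunits, the ring that gates the core, Psma1 to Psma7 had medians of 42.7 to 78.8 CPM in ac-WT hearts and log2 fold changes between -0.14 and 0.10. Psma8, the α subunit known from testis, was nearly silent. It spanned 0.444 to 1.15 CPM among ac-WT hearts (median 0.831) and 0.333 to 0.660 CPM among ac-CYB5R3-KO hearts (median 0.501). The groups overlapped, and its log2 fold change of -0.61 (SE 0.26), the most negative of the members, had an edgeR adjusted p of 0.304.

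Of the constitutive catalytic subunits, Psmb6, which has caspase-like activity, had the lowest p among the core β genes. Psmb6 (chr11:70338869-70341360 of mm9) spanned 71.9 to 138 CPM among ac-WT hearts (median 101) and 70.2 to 93.8 CPM among ac-CYB5R3-KO hearts (median 79.9). Heart 2 was the highest and heart 1 the lowest of the ac-WT hearts, and the groups overlapped (log2 fold change -0.33, SE 0.14, edgeR adjusted p = 0.298). Without ac-WT hearts 2 and 3 the log2 fold change was -0.16. Psmb5, with chymotrypsin-like activity, spanned 55.4 to 95.2 CPM among ac-WT hearts (median 80.7) and 61.7 to 76.4 CPM among ac-CYB5R3-KO hearts (median 69.9), so that all ac-CYB5R3-KO hearts lay inside the ac-WT range (log2 fold change -0.20, adjusted p = 0.477). Psmb7, with trypsin-like activity, went the other way. It spanned 17.2 to 37.1 CPM among ac-WT hearts (median 22.3) and 21.7 to 36.2 CPM among ac-CYB5R3-KO hearts (median 29.2), with ac-WT hearts 1, 2 and 3 at the low end (log2 fold change 0.22, adjusted p = 0.605). Without ac-WT hearts 2 and 3 it was 0.05. Per kilobase of transcript, the mean level in ac-WT hearts was 127 CPM for Psmb6, 91.5 for Psmb5 and 21.4 for Psmb7, although the particle holds these subunits in equal number. Overlapping genes and retrocopies can divide reads, and the strand setting of the counting is not given in the sources used here, so levels are uncertain for the 18 members whose spans overlap those of other annotated genes, among them Psmb5, Psmb7, Psmb8, Psmb10, Psme1, Psme2b and Psme4.

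Per kilobase of transcript, the mean level of the inducible Psmb8 in ac-WT hearts (13.5 CPM) was below that of Psmb5, which it replaces, and that of Psmb10 (33.8 CPM) above that of Psmb7. Psmb8 (chr17:34334666-34338399 of mm9), with chymotrypsin-like activity, spanned 14.3 to 30.6 CPM among ac-WT hearts (median 23.1) and 15.4 to 24.6 CPM among ac-CYB5R3-KO hearts (median 18.6). All ac-CYB5R3-KO hearts lay inside the ac-WT range (log2 fold change -0.19, SE 0.18, edgeR adjusted p = 0.633). The log2 fold change was -0.06 without ac-WT heart 2 and -0.29 without ac-WT heart 6. Psmb10 (chr8:108459628-108462292 of mm9), which replaces Psmb7, spanned 27.4 to 76.3 CPM among ac-WT hearts (median 38.5) and 29.0 to 44.0 CPM among ac-CYB5R3-KO hearts (median 38.7). Heart 2 stood far above the other ac-WT hearts, and the log2 fold change of -0.21 (adjusted p = 0.641) turned to 0.04 without it.

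The balance of inducible to constitutive subunits was followed within each heart as a ratio of counts, which does not depend on the scaling of the library. The ratio of Psmb8 to Psmb5 spanned 0.158 to 0.420 among ac-WT hearts (median 0.297) and 0.201 to 0.395 among ac-CYB5R3-KO hearts (median 0.289). Divided by transcript length it had medians of 0.159 and 0.155, so Psmb8 transcripts were the minority beside Psmb5 in both groups. The difference between the groups was 0.02 on the log2 scale (means -1.88 ± 0.50 and -1.86 ± 0.36, SD), and all 924 divisions of the hearts into groups of 6 gave a two-sided exact permutation p of 0.974. The ratio of Psmb10 to Psmb7 spanned 0.738 to 4.08 among ac-WT hearts (median 1.78) and 0.882 to 1.73 among ac-CYB5R3-KO hearts (median 1.27). All ac-CYB5R3-KO hearts lay inside the ac-WT range. The difference was -0.41 on the log2 scale (means 0.77 ± 0.84 and 0.36 ± 0.36, SD, exact permutation p = 0.307), and it was 0.00 without ac-WT hearts 2 and 3, -0.16 without ac-WT heart 2 alone and -0.66 without ac-WT heart 6 (exact permutation p = 0.0606). Adjusted over the 2 ratios, p was 0.974 and 0.614, and no smaller p than 0.00216 is possible with these groups.

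**Figure D3:**
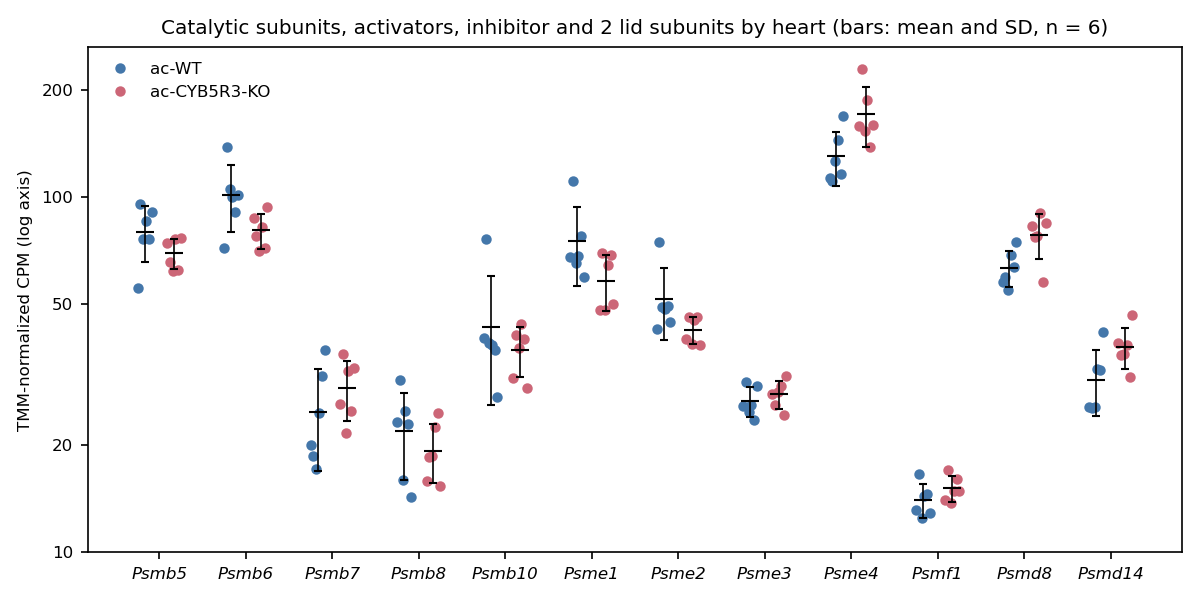
TMM-normalized CPM (log axis) of the catalytic subunits, activators, the inhibitor Psmf1 and 2 lid subunits in 6 ac-WT and 6 ac-CYB5R3-KO hearts, with the mean and SD of each group. Groups overlap for every gene shown, and ac-WT heart 2 is the highest point of Psmb10, Psme1 and Psme2.

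Of the 17 cap genes in the family, the lid subunits Psmd8 and Psmd14 had the lowest p. The lid protein Sem1, outside the naming rule, had a lower p on the lower side (log2 fold change -0.38, edgeR adjusted p = 0.224). Psmd8 spanned 54.8 to 74.7 CPM among ac-WT hearts (median 61.5) and 57.4 to 90.0 CPM among ac-CYB5R3-KO hearts (median 80.1). Of the ac-CYB5R3-KO hearts, 5 lay above all ac-WT hearts and heart 5 lay within their range (log2 fold change 0.31, SE 0.12, edgeR adjusted p = 0.259). Psmd14, the enzyme that cuts ubiquitin chains off the substrate, spanned 25.5 to 41.6 CPM among ac-WT hearts (median 29.2) and 31.1 to 46.4 CPM among ac-CYB5R3-KO hearts (median 37.1). The log2 fold change was 0.30 (SE 0.14, adjusted p = 0.331), and 0.20 without ac-WT hearts 2 and 3, which were 2 of the 3 lowest. The ATPase with the lowest p was Psmc4 (log2 fold change 0.22, adjusted p = 0.414), and among the other base subunits it was Psmd2, a scaffold of the base (log2 fold change 0.13, adjusted p = 0.570). The 17 cap genes had mean levels between 12.1 and 60.8 CPM per kilobase of transcript in ac-WT hearts, against 21.4 to 127 for the constitutive β subunits.

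Assembly chaperones hold the subunits while a particle is built. The cap chaperones Psmd5, Psmd9 and Psmd10 had mean levels of 4.61 to 5.25 CPM per kilobase in ac-WT hearts, below those of the 17 cap genes, and all 3 lay on the higher side in ac-CYB5R3-KO hearts (median log2 fold change 0.18). Psmd5 spanned 9.13 to 11.9 CPM among ac-WT hearts (mean 10.6 ± 1.24, SD) and 11.7 to 13.5 CPM among ac-CYB5R3-KO hearts (mean 12.3 ± 0.73, SD). The groups overlapped, and the log2 fold change of 0.21 (SE 0.09) had an edgeR adjusted p of 0.322. The log2 fold changes of Psmd5, Psmd9 and Psmd10 were 0.13, 0.02 and 0.07 without ac-WT hearts 2 and 3. The 4 core chaperones, Psmg1 to Psmg4, had mean levels per kilobase of 5.35 CPM (Psmg3) and of 13.1 CPM or more (the others), and all had a negative log2 fold change (median -0.20). Without ac-WT hearts 2 and 3 the values were 0.00 for Psmg1, 0.01 for Psmg2, 0.04 for Psmg3 and -0.09 for Psmg4. Psmg4 spanned 6.63 to 16.5 CPM among ac-WT hearts (median 8.42) and 6.29 to 7.86 CPM among ac-CYB5R3-KO hearts (median 7.22). Its log2 fold change of -0.39 (adjusted p = 0.355) was -0.15 without ac-WT heart 2, its highest heart. At total counts, where the median of all genes was 0.26, Psmg1 (0.08) and Psmg2 (0.17) lay below that median and Psmg3 (0.27) beside it. Their side of 0 at total counts follows this shift of all genes and says nothing about these genes alone. In the TMM fit, the side of Psmg1, Psmg2 and Psmg3 depended on ac-WT hearts 2 and 3.

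Psme4, which encodes PA200, an activator found in the nucleus, had the lowest p of all members. Psme4 (chr11:30671726-30780361 of mm9) spanned 111 to 169 CPM among ac-WT hearts (median 121) and 138 to 228 CPM among ac-CYB5R3-KO hearts (median 158). The groups overlapped, with ac-WT hearts 4 and 6 above the lowest ac-CYB5R3-KO heart, and the log2 fold change of 0.39 (SE 0.15) had an edgeR adjusted p of 0.249. It was 0.35 without ac-WT hearts 2 and 3. Psme1 (chr14:56196960-56200366 of mm9) and Psme2, the interferon-inducible partners of the PA28αβ ring, lay on the lower side. Psme1 spanned 59.5 to 111 CPM among ac-WT hearts (median 67.9) and 48.1 to 69.6 CPM among ac-CYB5R3-KO hearts (median 57.1), with heart 2 highest among ac-WT (log2 fold change -0.36, SE 0.16, adjusted p = 0.321). Psme2 spanned 42.6 to 74.8 CPM among ac-WT hearts (median 48.7) and 38.3 to 45.9 CPM among ac-CYB5R3-KO hearts (median 42.4), again with heart 2 highest (log2 fold change -0.28, SE 0.13, adjusted p = 0.341). Without ac-WT hearts 2 and 3 the values were -0.22 for Psme1 and -0.11 for Psme2. Psme2b, a copy of Psme2 with which it can share reads, had a log2 fold change of -0.39, and -0.15 without these hearts. Psme3, the nuclear PA28γ, which interferon does not induce, spanned 23.5 to 30.2 CPM among ac-WT hearts (median 25.9) and 24.3 to 31.3 CPM among ac-CYB5R3-KO hearts (median 28.1, log2 fold change 0.07, adjusted p = 0.751). The inhibitor Psmf1 spanned 12.5 to 16.6 CPM among ac-WT hearts (median 13.8) and 13.8 to 17.1 CPM among ac-CYB5R3-KO hearts (median 14.9, log2 fold change 0.11, adjusted p = 0.591). Of the genes that only share the name, Psme3ip1 had the lower p (log2 fold change 0.15, adjusted p = 0.429).

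The side on which a member lay went with the length of its transcript. Over the 49 members, Spearman's rho between the log2 fold change and transcript length was 0.58, beside 0.10 over the 13856 tested genes with a length. The shortest transcript, Psmg4 (554 bases), was among the most negative members and the longest, Psme4 (6491 bases), was the most positive. Core genes had a median length of 1160 bases and cap genes of 1785 bases. Within the core rho was 0.51 over 15 genes, and within the cap it was -0.11 over 17 genes. In ac-WT heart 2, members with short transcripts were high relative to the other ac-WT hearts (rho -0.47 over the members, -0.23 over all genes). Without ac-WT hearts 2 and 3 the rho of the members was 0.60. These are correlations across genes, which share their libraries, and the part of transcript length in the difference between core and cap was not tested.

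**Figure D4:**
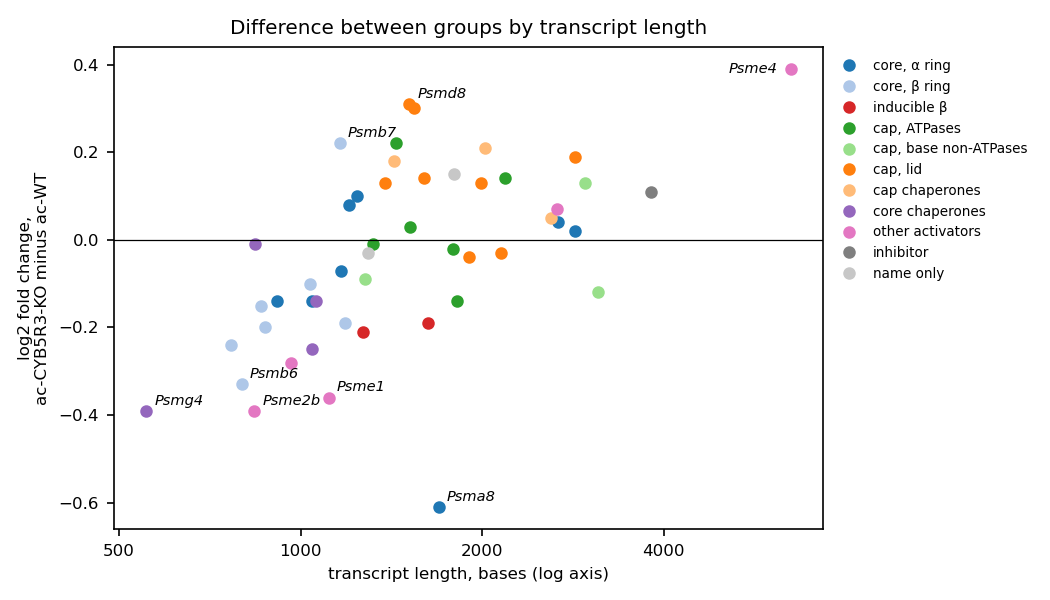
Log2 fold change (ac-CYB5R3-KO minus ac-WT) of the 49 members against the length of their transcript in bases (log axis), coloured by class. Short transcripts such as Psmg4, Psme2b and Psmb6 lie below 0 and the longest, Psme4, lies at 0.39, with Psma8 as an exception at -0.61.

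In both groups the spread of most proteasome genes between hearts was below the median of all genes tested. The coefficient of variation (CV) had a median of 14.9% over the 49 members in ac-WT hearts (7.32% to 39.4%) and of 9.21% in ac-CYB5R3-KO hearts (3.56% to 25.4%), and it was higher in ac-WT for 46 members (93.9%), beside 78.6% of all genes. Over all genes tested the medians were 24.9% and 15.7%. The genes were not matched for level, and the part of level in this difference was not tested. The nearly silent Psma8 had a CV of 34.0% in ac-WT and 25.4% in ac-CYB5R3-KO hearts. Psmb10 had the largest CV among ac-WT hearts (39.4%), followed by Psmg4 (37.9%), both of which were highest in heart 2. Without heart 2 the median CV of the members in ac-WT hearts was 12.1%.

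The hearts lowest in Psmb8 came from both genotypes. Psmb8 was between 14.3 and 16.0 CPM in the 4 lowest hearts (ac-WT 3 and 6, ac-CYB5R3-KO 1 and 6), and the next heart was at 18.5 CPM. The same 4 hearts were the lowest for Tap1, the peptide transporter of antigen presentation (11.1 to 13.0 CPM, against 17.7 to 22.3 CPM in the other 8). Of these 4 hearts, 3 were among the 4 lowest for Psmb10, 3 for Psme1, 2 for Psme2, 1 for Psme3, 1 for the leukocyte marker Ptprc and 0 for Psmb5. At total counts the gap in Tap1 was lost (at most 14.5 CPM in the 4 and at least 12.7 CPM in the 8). These genes were chosen after the values of the members were seen.

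Correlations with Psmb8 over the 12 hearts were computed on log2(CPM + 0.5) for 6 genes, with two-sided permutation tests (100000 permutations), and none for Tap1, whose hearts fell into separate sets. For Psmb10, Pearson's r was 0.81 (permutation p = 0.00037, adjusted p = 0.00222) and Spearman's rho 0.66 (permutation p = 0.0226, adjusted p = 0.0677). For Psme1, r was 0.76 (permutation p = 0.00307, adjusted p = 0.00921) and rho 0.68 (permutation p = 0.019, adjusted p = 0.0677). For Psme2, r was 0.66 (permutation p = 0.0107, adjusted p = 0.0214) and rho 0.56 (permutation p = 0.0627, adjusted p = 0.125). These 3 relations passed the adjustment by r and not by rho. Neither coefficient passed for Psmb5 (r 0.02, rho -0.01, permutation p = 0.962 and 0.991), Psme3 (-0.22, -0.25, permutation p = 0.481 and 0.431) or Ptprc (-0.39, -0.14, permutation p = 0.215 and 0.667), with adjusted p between 0.322 and 0.991. Without the 2 hearts farthest from the median of Psmb8 (ac-WT 2 and 6), r was 0.65 for Psmb10, 0.68 for Psme1, 0.51 for Psme2, -0.15 for Psmb5, -0.48 for Psme3 and 0.08 for Ptprc. Without ac-WT heart 2 alone, r was 0.75 for Psmb10, 0.63 for Psme1, 0.43 for Psme2, -0.37 for Psmb5, -0.55 for Psme3 and 0.04 for Ptprc. With ac-WT heart 3 left out as well, r was 0.84, 0.70, 0.61, -0.35, -0.70 and -0.13 in the same order. Within the 6 ac-WT and the 6 ac-CYB5R3-KO hearts, r was 0.80 and 0.84 for Psmb10, 0.80 and 0.74 for Psme1, and 0.62 and 0.76 for Psme2. It was 0.01 and -0.45 for Psmb5, 0.09 and -0.59 for Psme3, and -0.30 and -0.53 for Ptprc. At total counts, r over the 12 hearts was 0.80 for Psmb10, 0.78 for Psme1 and 0.76 for Psme2, and it changed sign for Psme3 (0.36) and Ptprc (0.42). The relations were noticed in these hearts before they were tested in them, so their p-values are no independent evidence.

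**Figure D5:**
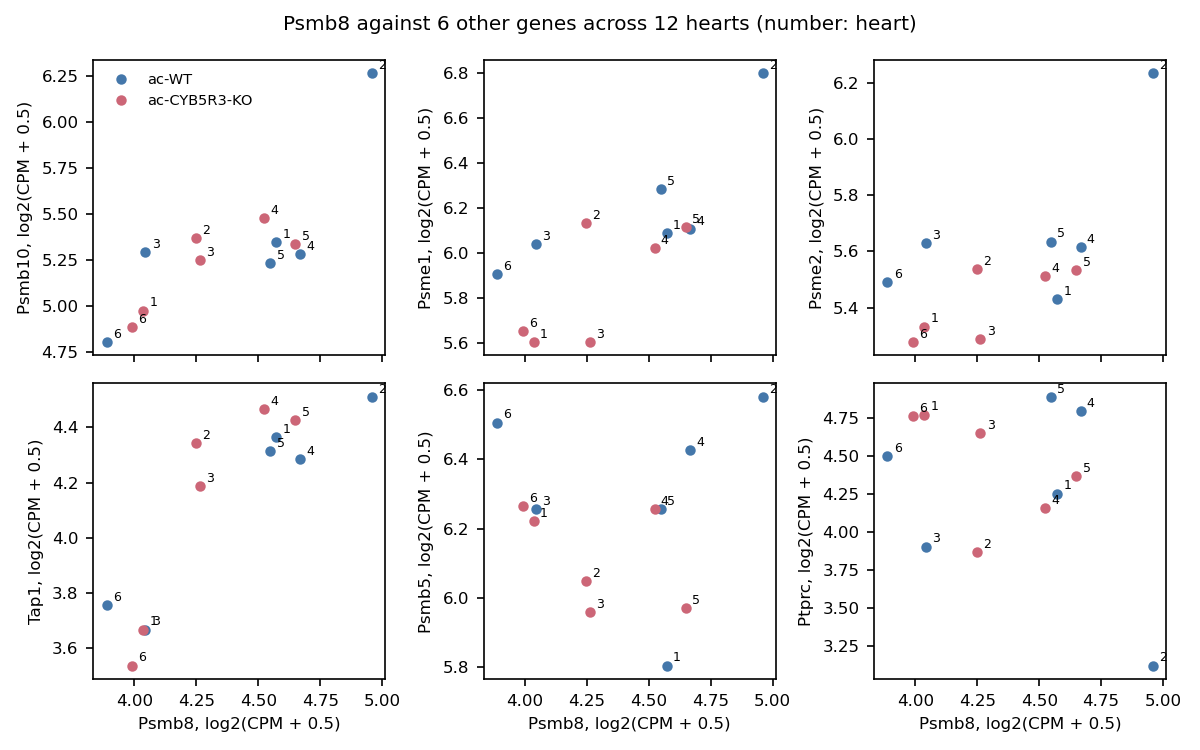
Psmb8 against Psmb10, Psme1, Psme2, Tap1, Psmb5 and Ptprc in 12 hearts, each axis as log2(CPM + 0.5), with the number of the heart beside its point. Hearts ac-WT 3 and 6 and ac-CYB5R3-KO 1 and 6 are the 4 lowest for Tap1 (11.1 to 13.0 CPM, against 17.7 to 22.3 CPM).

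Of 10 genes of antigen processing, 0 had an unadjusted p under 0.05 in edgeR (8 lower, 2 higher, median log2 fold change -0.04). Tap1 had a log2 fold change of -0.03 (adjusted p = 0.947), and B2m, the light chain of class I molecules, of 0.00 (adjusted p = 0.997). Of 37 tested genes of cap-bound proteins, assembly factors, shuttles, extraction, ubiquitin, transcription factors of proteasome genes and muscle ligases, 14 were lower and 23 higher, with a median of 0.06, and 1 in each direction had an unadjusted p under 0.05. Sem1, a small protein of the lid, spanned 136 to 241 CPM among ac-WT hearts (median 177) and 110 to 150 CPM among ac-CYB5R3-KO hearts (median 144, log2 fold change -0.38, adjusted p = 0.224). Usp14, a ubiquitin protease that sits on the cap, spanned 28.3 to 36.4 CPM among ac-WT hearts (median 30.6) and 31.5 to 40.6 CPM among ac-CYB5R3-KO hearts (median 37.4, log2 fold change 0.24, adjusted p = 0.269). Nfe2l1 had a log2 fold change of 0.24 (adjusted p = 0.358) and Pomp, the maturation factor of the core, of 0.14 (adjusted p = 0.562). The ubiquitin ligases of muscle wasting, Fbxo32 and Trim63, had values of 0.31 (adjusted p = 0.614) and -0.13 (adjusted p = 0.819).

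Markers of other cells were read beside these values. Of 8 leukocyte and 8 macrophage markers, 0 had an unadjusted p under 0.05 in edgeR, and their summed levels ran from 98.8 to 346 (leukocyte) and 272 to 927 CPM (macrophage) among ac-WT hearts, against 166 to 288 and 489 to 787 CPM among ac-CYB5R3-KO hearts. The lowest ac-WT heart was heart 2 for the leukocyte and heart 3 for the macrophage sum. Of 10 lymphocyte markers tested, 9 were higher and 3 of them (Cd3d, Cd3g and Cd8a) had an unadjusted p under 0.01 in edgeR. Their edgeR adjusted p was 0.186, 0.184 and 0.105, so none passed the adjustment. The summed levels of the lymphocyte markers were low, at 2.55 to 5.91 CPM in ac-WT hearts and 5.29 to 8.16 CPM in ac-CYB5R3-KO hearts. Of 10 cardiomyocyte markers, 8 were lower, 4 of them with an unadjusted p under 0.05. Of these, 3 were under 0.01, namely the contractile genes Tnni3 (log2 fold change -1.01, edgeR adjusted p = 0.184), Myl2 (-1.22, 0.184) and Myl3 (-0.87, 0.211). The median of the 10 was -0.32, and Actc1 (0.08) and Ryr2 (0.04) were the 2 higher genes. In ac-WT hearts Tnni3 reached 4810 CPM beside a median of 1810, and Myl2 13700 CPM beside 4250. The sum of the 10 markers spanned 23500 to 53400 CPM among ac-WT hearts, highest in heart 2, and 17100 to 28800 CPM among ac-CYB5R3-KO hearts. Of 8 fibroblast markers, 5 were lower, of which Gsn had an unadjusted p under 0.01 (log2 fold change -0.83, edgeR adjusted p = 0.17). Their sum spanned 1610 to 4330 CPM in ac-WT hearts and 2530 to 3900 CPM in ac-CYB5R3-KO hearts. Of 8 endothelial markers, 7 were lower and 0 had an unadjusted p under 0.05 in edgeR (sums of 800 to 1540 CPM and 859 to 1550 CPM). All 7 blood markers were higher, 5 of them with an unadjusted p under 0.05, with a median log2 fold change of 1.62 and sums of 425 to 8210 CPM in ac-WT and 2540 to 24800 CPM in ac-CYB5R3-KO hearts. The part of these cells in the proteasome values was not tested.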

How the data were processed

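RNA of 12 whole mouse hearts was sequenced from stranded libraries as unpaired reads. The authors deposited raw read counts, a whole number per Ensembl gene and library, without normalization or filter. The study's methods name STAR and mm9, and the submitters' processing notes name STAR, featureCounts and GRCm39. Gene coordinates and transcript lengths (the coding transcript with the longest coding sequence) came from GENCODE on NCBIM37 (mm9), and promoters from RefSeq on GRCm38.p6. Symbols were found for 31027 identifiers (57.8%).

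Counts were filtered by filterByExpr (minimum count 10), scaled by TMM and tested two-sided by quasi-likelihood in edgeR (version 4.0.16, R 4.3.3) with no covariate and Benjamini-Hochberg adjustment over all 17847 genes. Ratios were tested by exact permutation and correlations by 100000 permutations (scipy 1.17.1), with 0.5 added to counts or CPM before logs. The fit was tested on simulated data. Alternatives were DESeq2 (version 1.42.0), total counts, no filter, the replicate number as a block, and leaving out hearts. Named were the catalytic subunits, activators and Psmf1, every member with an unadjusted p under 0.01, and the member of lowest p in each class. Of the partner and antigen lists, genes with an unadjusted p under 0.01 (of which there were 0), Nfe2l1, Pomp, Tap1 and B2m were named. Psmd14, Psme2b, Sem1, Usp14, Fbxo32, Trim63 and the cell markers were named after their values were seen. 1 gene of the other lists is not reported here. Members and lists were chosen with earlier results of these data known. Reads carried no molecular identifiers and may repeat a molecule, and at 535 or more counts per heart for each catalytic subunit the spread between mice exceeded counting error.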

Additional observations from a re-analysis of the deposited data

Results flagged for a closer look

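Of 38 groups of 6 hearts checked for a value far from the others (17 named members and 2 ratios in each genotype), 4 held one by Dixon's ratio at its 95% critical value, where chance gives about 1 in 20. All 4 lay in ac-WT heart 2, the library with the lowest TMM factor. Psmb10 was at 76.3 CPM there and between 27.4 and 40.1 CPM in the other ac-WT hearts. Psme1 was at 111 CPM against 59.5 to 77.5 CPM, Psme2 at 74.8 CPM against 42.6 to 49.2 CPM, and Psmg4 at 16.5 CPM against 6.63 to 9.16 CPM. The sum of the cardiomyocyte markers was also highest in this heart, and the part of its composition in these values was not tested.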

How the results depend on the processing

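No member had an adjusted p under 0.05 in any of the 17 other settings (lowest 0.122). Members with an unadjusted p under 0.05 numbered 4 lower and 4 higher as reported, 0 and 7 at total counts, and 1 and 2 without ac-WT hearts 2 and 3. No share of all genes is given for the other settings, so these counts are descriptive. Leaving out 1 heart at a time gave 0 to 9 lower (9 without ac-WT 1, 0 without ac-WT 2 or ac-CYB5R3-KO 4, 1 or 2 without ac-WT 3 or ac-CYB5R3-KO 1, 2, 3 or 6) and 2 to 6 higher (2 without ac-WT 3 or 4 or ac-CYB5R3-KO 2, 4 or 6). Members with p under 0.01 numbered 0 to 3, with 3 without ac-WT 6 and 1 without ac-WT 1 or ac-CYB5R3-KO 5. At total counts, where the median of all genes moved to 0.26, the medians were 0.15 for core and 0.35 for cap subunits. The log2 fold changes of Psmb10, Psmb5, Psmb8 and Psme2 changed sign there to 0.15, 0.07, 0.10 and 0.03, below the median of all genes. That of Psmb10 was 0.07 without ac-WT hearts 2 and 3 and ran from -0.31 to 0.04 with 1 heart left out. The difference in the Psmb8 to Psmb5 ratio was -0.00181 as a ratio itself, -0.01 without ac-WT hearts 2 and 3, and -0.13 to 0.15 with 1 heart left out. The cause was not tested. Same-numbered hearts are different animals, and their deviations correlated by -0.0806 to 0.353. With the number as a replicate block, 1 member had a p under 0.01 and 0 an adjusted p under 0.05, with 4 lower and 3 higher at p under 0.05. The planned ratio of Psmb9 to Psmb6 was not run.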
